A study of Arabidopsis thaliana with 4 samples.

Results

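Genes for heat shock proteins and heat stress transcription factors were examined in roots of Arabidopsis thaliana seedlings exposed to aluminium (Al). The members were the loci whose deposited description, on the first listed transcript, contained the words heat shock, heat-shock or heat stress transcription factor. These were 97 of 21531 loci. They comprised 13 small heat shock proteins (small HSPs), 10 HSP70 proteins, 4 HSP90 proteins, HSP101, 17 heat stress factors, 30 loci described as DnaJ proteins and 22 others. The 4 groups were the Columbia wild type (Col) and luh-4, a mutant of the co-repressor gene LEUNIG_HOMOLOG (LUH), each with and without Al. Roots were taken from seedlings 6 d old, grown at pH 5.5 and then kept for 4 h at pH 4.2 with 0 or 25 µM AlCl3. About 500 seedlings were pooled, and each group was 1 library. The control libraries carry a time label of 0 h although the treatment description gives 4 h for both arms, so a control harvested at the start cannot be told apart from one held at pH 4.2 for 4 h.

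Heat shock proteins are chaperones that bind unfolded or misfolded polypeptides. Small HSPs hold unfolding proteins in a state from which they can be refolded, HSP70 proteins with their DnaJ partners and HSP90 proteins use ATP to fold or mature client proteins, and HSP101 pulls proteins out of aggregates. Heat stress transcription factors (HSFs) bind heat shock elements, which are arrays of inverted GAA units in promoters, and class A factors activate while most class B factors lack an activation domain. Some members of each family are present without heat, and others are made mainly in response to it.

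The libraries held 13.45 to 13.82 M counted reads (M, mega). LUH had 75 and 63 reads in the Col control and Col Al libraries and 0 in both luh-4 libraries, where up to 3 reads cannot be told from 0. All 10 root markers were detected, with summed RPKM (reads scaled by coding length and library total) of 859.7 to 1065. The root hair genes EXPA7 (-2.03, -2.18 to -1.87) and COBL9 (-1.64, -1.81 to -1.49) fell with Al in Col, as log2 ratios, and both had -0.85 in luh-4, without passing the size rule given below. EXPA7 was higher in luh-4 than in Col with Al, at 1.43, and its Al response differed by 1.17 (0.99 to 1.36). The other 8 root markers did not pass in any comparison. Of 15 green shoot markers, LHCA3 was at 0 in Col control and the others were detected in every library. Their summed RPKM was 148.1 in Col control, 105.4 in Col Al, 397.8 in luh-4 control and 123.4 in luh-4 Al. Of the 14 measured shoot markers, 10 were higher in luh-4 control than in Col control, and 11 fell with Al in luh-4. The part of these root and shoot markers in the values below was not tested. In these whole roots, fewer cells of a type and less RNA per cell cannot be told apart.

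Values below are RPKM, and ratios are log2 ratios of RPKM + 0.1 with a 95% interval from the read counts, given in parentheses. Loci counted as measured had an RPKM of 1 or more in a library of the comparison. A locus is said to have risen or fallen, or to be higher or lower, where its log2 ratio was at least 1 or at most -1 and its interval excluded 0. With 1 library per group there was no replicate check and no test of a single comparison, and the intervals cover counting error only. Of the 97 members, 86 reached an RPKM of 1 in at least 1 library and 11 stayed below it in all 4. Some change past the size rule was seen for 12 members in at least 1 of the 4 comparisons, and for 85 in none. The 85 include the 11 that stayed below an RPKM of 1, which could not pass. The same count over all loci was not computed, so 12 is not shown to be many or few. Shares over all loci are given below for each comparison.

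The first question was how heat shock genes respond to Al. In Col, small HSP genes of several cell compartments fell while 3 factor genes rose. Among these factor genes, the rise of HSFB3 rested on 9 reads in Col control and 21 in Col Al. HSP70, HSP90 and HSP101 genes did not pass the size rule in either direction. Of 84 members measured in Col, 3 rose and 6 fell. Over all measured loci 2.60% rose and 2.91% fell. The share of members that rose was near that of all loci, and 5 of the 6 that fell were small HSP genes. In luh-4, 2 of 84 members rose and 6 fell, against 2.02% and 3.10% of all measured loci. The Al responses of Col and luh-4 share no library. Over the 82 members measured in both, 5 fell in both, 1 rose in both and 0 moved in opposite directions past the rule. The ratios had a Pearson r of 0.78 and a Spearman rho of 0.59 across genes, which are not independent replicates. Among the classes for which it was computed, rho ran from 0.84 for small HSP genes to 0.32 for the other members. The same counts and correlations over all loci were not computed, so this agreement is not shown to be particular to the members.

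**Figure D1:**
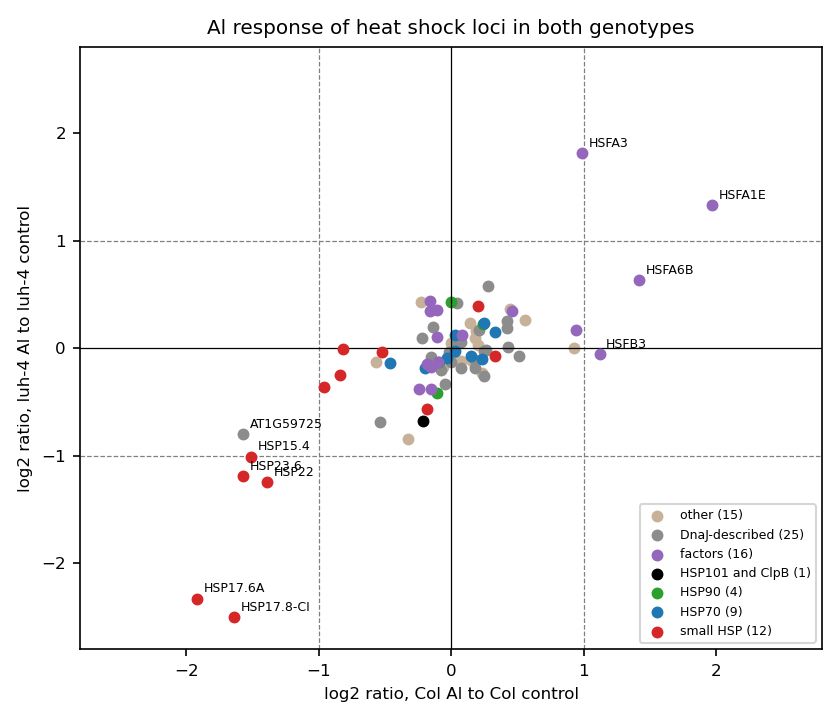
Log2 ratio of Al to control in Col (x axis) and in luh-4 (y axis) for the 82 heat shock members measured in both; each point is 1 locus, coloured by class, and dashed lines mark -1 and 1. The 5 small HSP genes that fell in both genotypes lie at the lower left, HSFA1E lies past 1 on both axes, and HSP70, HSP90 and HSP101 genes lie inside the dashed lines.

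All 5 members that fell in both genotypes were small HSP genes. HSP17.6A (AT5G12030), a cytosolic class II protein, was at 61.8 in Col control, 16.3 in Col Al, 35.4 in luh-4 control and 6.95 in luh-4 Al. Each Al library lay below both controls, and luh-4 lay below Col with and without Al. Its ratio of Al to control was -1.92 (-2.25 to -1.61) in Col against -2.33 (-2.85 to -1.88) in luh-4, and its reads went from 399 to 106 and from 229 to 44. HSP17.8-CI (AT1G07400), a cytosolic class I protein, was at 27.9 and 8.85 in the Col control and Al libraries and at 21.8 and 3.76 in those of luh-4. Again both Al libraries were below both controls. Its ratios were -1.64 (-2.11 to -1.22) and -2.50 (-3.22 to -1.90).

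The other 3 encode proteins outside the main cytosolic classes or in organelles. HSP22 (AT4G10250), of the endoplasmic reticulum (ER), was at 11.8 and 4.43 in Col and at 11.3 and 4.68 in luh-4, with ratios of -1.39 (-2.01 to -0.85) and -1.25 (-1.86 to -0.70). HSP23.6 (AT4G25200), of mitochondria, was at 4.27 and 1.37 in Col and at 4.14 and 1.76 in luh-4. Its ratios were -1.57 (-2.71 to -0.67) and -1.19 (-2.21 to -0.33), on 12 and 15 reads in the Al libraries. For these genes the 2 controls were within counting error of each other. HSP15.4 (AT4G21870) was at 45.6 and 15.9 in Col and at 55.0 and 27.2 in luh-4. Its ratios were -1.51 (-1.89 to -1.17) and -1.01 (-1.31 to -0.73), and in luh-4 it stood just at the limit, at -1.0 with TMM scaling (trimmed mean of M-values) and -0.99 after centring on the median locus, where it no longer passed.

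The most abundant small HSP genes among the members did not pass the rule. HSP17.4-CI (AT3G46230), of cytosolic class I, was at 371.2 in Col control, 258.6 in Col Al, 219.2 in luh-4 control and 213.7 in luh-4 Al. Its ratio was -0.52 (-0.61 to -0.43) in Col against -0.04 (-0.14 to 0.07) in luh-4. HSP17.6C-CI (AT1G53540), of the same class, was at 266.2, 305.3, 175.3 and 229.8 in the same order, with ratios of 0.20 (0.10 to 0.29) and 0.39 (0.28 to 0.50). Both luh-4 libraries lay below the Col library of the same treatment for these genes. HSP18.2 (AT5G59720), also of class I, was at 49.3, 43.5, 43.1 and 29.1.

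HSP17.6-CII (AT5G12020) is the other class II gene and lies next to HSP17.6A on chromosome 5. It was at 173.6 in Col control, 98.5 in Col Al, 97.1 in luh-4 control and 96.1 in luh-4 Al, so Col control stood alone above 3 near-equal libraries. Its ratio of Al to control was -0.82 (-0.96 to -0.68) in Col against -0.01 (-0.18 to 0.15) in luh-4. The neighbouring gene HSP17.6A, at -2.33 in luh-4, had the larger decrease in both genotypes. The remaining members were HSP14.7 (-0.84 and -0.25), HSP15.7 of peroxisomes (-0.96 and -0.36, on 16 reads or fewer), HSP23.5 of mitochondria (0.33 and -0.07) and HSP21 of chloroplasts. HSP21 had 6 and 4 reads in the controls and 0 in both Al libraries, below an RPKM of 1 throughout.

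Of the 13 small HSP members, 12 were measured, and 5 fell and 0 rose in each genotype. Their median ratio was -0.90 in Col (range -1.92 to 0.33) and -0.46 in luh-4 (range -2.50 to 0.39). The median over all measured loci was 0.02 in Col and -0.02 in luh-4. The summed RPKM of the 13 genes was 1058 in Col control, 796.1 in Col Al, 711.6 in luh-4 control and 657.7 in luh-4 Al. It was highest in Col control, where HSP17.4-CI, HSP17.6C-CI and HSP17.6-CII made up most of it. The 6 small HSP genes whose descriptions lack the words of the rule, among them HSP17.6B-CI at 1039.6 in Col control, were not members. HSP17.6B-CI had Al ratios of -0.23 in Col and -0.03 in luh-4. The 5 of these genes that were measured had medians of -0.23 in Col and -0.09 in luh-4, with 0 falling and 0 rising. With them included, 5 of 17 small HSP genes fell in each genotype, and the medians were -0.52 in Col and -0.25 in luh-4, so the size of the class median depended on which genes the descriptions selected. Class I genes resemble each other in sequence, so reads may have been split among them in a way that the deposited counts do not show.

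**Figure D2:**
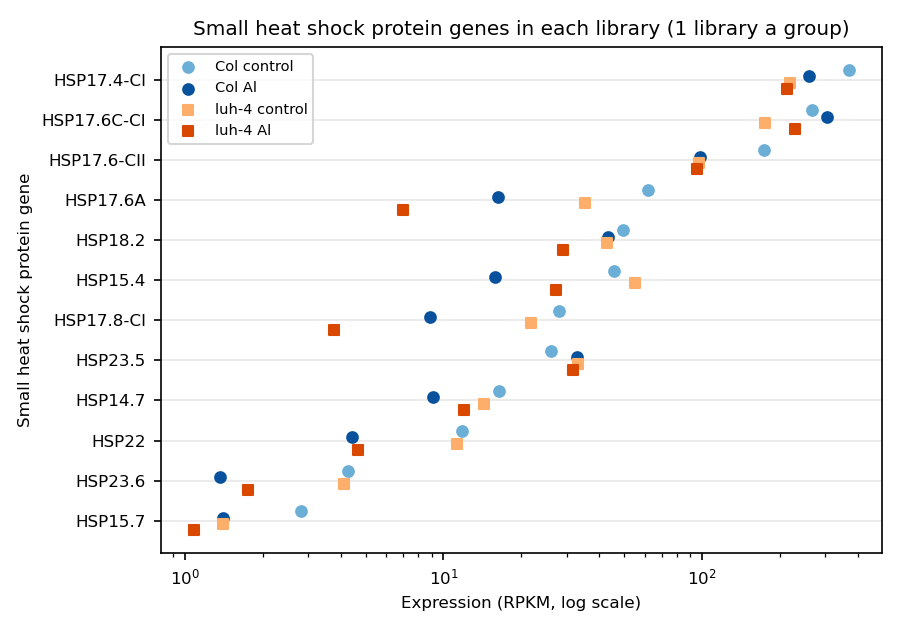
RPKM (x axis, log scale) of 12 small HSP genes in each of the 4 libraries; circles are Col, squares luh-4, pale symbols control and dark symbols Al, with 1 library per symbol. HSP21, at 0 in both Al libraries, is not plotted. The dark symbols of HSP17.6A, HSP17.8-CI, HSP15.4, HSP22 and HSP23.6, which fell in both genotypes, lie left of both pale ones. So do those of HSP14.7 and, narrowly, HSP15.7, which did not pass the rule. Those of HSP17.6C-CI do not.

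The promoters were then searched for heat shock elements. The 250 bases before the annotated start are shown for HSP17.6A and HSP17.8-CI, which fell furthest, for HSP17.4-CI and HSP17.6C-CI, which were most abundant and did not pass the rule, and for HSFA1E, the factor gene that rose in both genotypes. Sequences are from the RefSeq assembly TAIR10.1, written 5′ to 3′ on the gene's strand, with matches to heat shock elements in capitals.
HSP17.6A, chr5:3884839-3885088, minus strand: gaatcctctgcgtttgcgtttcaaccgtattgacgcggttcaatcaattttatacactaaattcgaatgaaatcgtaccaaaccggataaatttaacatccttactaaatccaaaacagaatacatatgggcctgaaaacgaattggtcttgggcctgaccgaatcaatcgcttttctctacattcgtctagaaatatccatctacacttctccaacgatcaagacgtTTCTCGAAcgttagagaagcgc
HSP17.8-CI, chr1:2274676-2274925, plus strand: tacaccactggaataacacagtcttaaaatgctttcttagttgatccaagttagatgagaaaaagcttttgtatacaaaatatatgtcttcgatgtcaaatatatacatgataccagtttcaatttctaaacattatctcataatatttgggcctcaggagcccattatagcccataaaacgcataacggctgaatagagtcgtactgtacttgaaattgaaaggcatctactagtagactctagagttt
HSP17.4-CI, chr3:16984868-16985117, minus strand: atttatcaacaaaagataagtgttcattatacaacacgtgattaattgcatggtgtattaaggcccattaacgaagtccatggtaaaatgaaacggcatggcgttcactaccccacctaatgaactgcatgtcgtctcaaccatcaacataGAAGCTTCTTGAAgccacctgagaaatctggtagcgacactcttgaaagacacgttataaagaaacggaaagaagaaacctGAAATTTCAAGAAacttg
HSP17.6C-CI, chr1:19980049-19980298, plus strand: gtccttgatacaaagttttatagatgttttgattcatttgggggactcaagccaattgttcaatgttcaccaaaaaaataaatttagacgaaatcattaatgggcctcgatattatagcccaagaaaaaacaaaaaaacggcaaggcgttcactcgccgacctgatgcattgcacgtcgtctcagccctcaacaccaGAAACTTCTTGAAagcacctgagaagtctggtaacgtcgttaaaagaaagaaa
HSFA1E, chr3:673178-673427, plus strand: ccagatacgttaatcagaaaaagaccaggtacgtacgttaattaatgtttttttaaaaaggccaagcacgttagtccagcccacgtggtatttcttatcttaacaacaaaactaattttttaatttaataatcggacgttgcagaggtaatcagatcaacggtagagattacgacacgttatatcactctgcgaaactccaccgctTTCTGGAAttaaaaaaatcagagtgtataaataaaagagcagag

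Matches were to GAANNTTC or TTCNNGAA, each of which reads the same on both strands, and to their 3-unit forms GAANNTTCNNGAA and TTCNNGAANNTTC, which are each other's reverse complement and each contain both 2-unit forms. Of 27443 protein-coding promoters of this length, 16.1% held a 2-unit match and 0.386% a 3-unit match. Among 13 small HSP genes, 6 held a 2-unit match and 2 a 3-unit match. HSP17.4-CI had 3-unit matches beginning 99 and 18 bases before the start, and HSP17.6C-CI had 1 beginning 53 bases before it. Of the 5 genes that fell in both genotypes, HSP17.6A had a 2-unit match at 22 bases and the other 4 had none in this window, and 0 of the 5 had a 3-unit match. Of 17 factor genes, 4 held a 2-unit match, HSFA1E at 44 bases among them, and 2 a 3-unit match, HSFA2 and HSFA7A. None of the 15 HSP70, HSP90 and HSP101 members held either. Of all 97 members, 17.5% held a 2-unit match, near the share of all promoters, and 4.12% a 3-unit match. A match describes the letters only. Elements with mismatches or gaps, or outside this window, were not searched, so a gene without a match is not shown to lack an element.

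No HSP70 gene passed with Al. Of 9 measured, 0 rose and 0 fell in either genotype. Their Al ratios ran from -0.46 to 0.33 in Col (median 0.03) and, in luh-4, from -0.19 to 0.23 (median -0.07). HSC70-1 (AT5G02500), the main cytosolic form, was at 652.8 in Col control, 667.6 in Col Al, 723.1 in luh-4 control and 708.7 in luh-4 Al. It was the most abundant HSP70 member in every library, although reads covered at most 44.3% of its coding length. The plastid form CPHSC70-1 (AT4G24280) was at 165.8 to 181.6, and its neighbour in that order, the heat-inducible cytosolic HSP70-4 (AT3G12580), was at 161.8 and 157.9 in Col and at 122.3 and 114.8 in luh-4. HSP70-4 had Al ratios of -0.03 in Col and -0.09 in luh-4, and both luh-4 libraries lay below both Col libraries. HSC70-2 had the lowest ratio in Col, -0.46 (-0.66 to -0.27), with -0.14 (-0.34 to 0.07) in luh-4. HSP70-14 and HSP70-15, of the HSP110 type, are neighbouring genes with similar sequences. Reads covered at most 17.1% of the coding length of HSP70-14 and a similarly short stretch of HSP70-15, and both are uncertain as single genes. HSP70-18 had 2 reads in 1 library and 0 in the others.

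HSP90 genes did not pass either. HSP90.3 (AT5G56010), cytosolic, had 7192 and 8559 reads in the control and Al libraries of Col and 8014 and 9149 in those of luh-4, so the Al library was the higher in both genotypes. Its ratios were 0.24 (0.19 to 0.28) and 0.22 (0.18 to 0.26). HSP90.1 (AT5G52640), the heat-inducible cytosolic form, was at 41.4 and 38.3 in Col and at 36.4 and 27.1 in luh-4, with ratios of -0.11 (-0.23 to 0.01) and -0.42 (-0.56 to -0.29). The mitochondrial HSP90.6 (AT3G07770) was at 101.7 to 125.3 in the 4 libraries. HSP90.2 and HSP90.3 are near-identical, and HSP90.2 was covered over at most 16.6%, so they are uncertain as single genes. HSP101 (AT1G74310), the cytosolic disaggregase, was at 8.51 and 7.33 in Col and at 9.53 and 5.90 in luh-4, lowest in luh-4 Al. Its ratio was -0.21 (-0.45 to 0.02) in Col against -0.68 (-0.94 to -0.44) in luh-4.

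**Figure D3:**
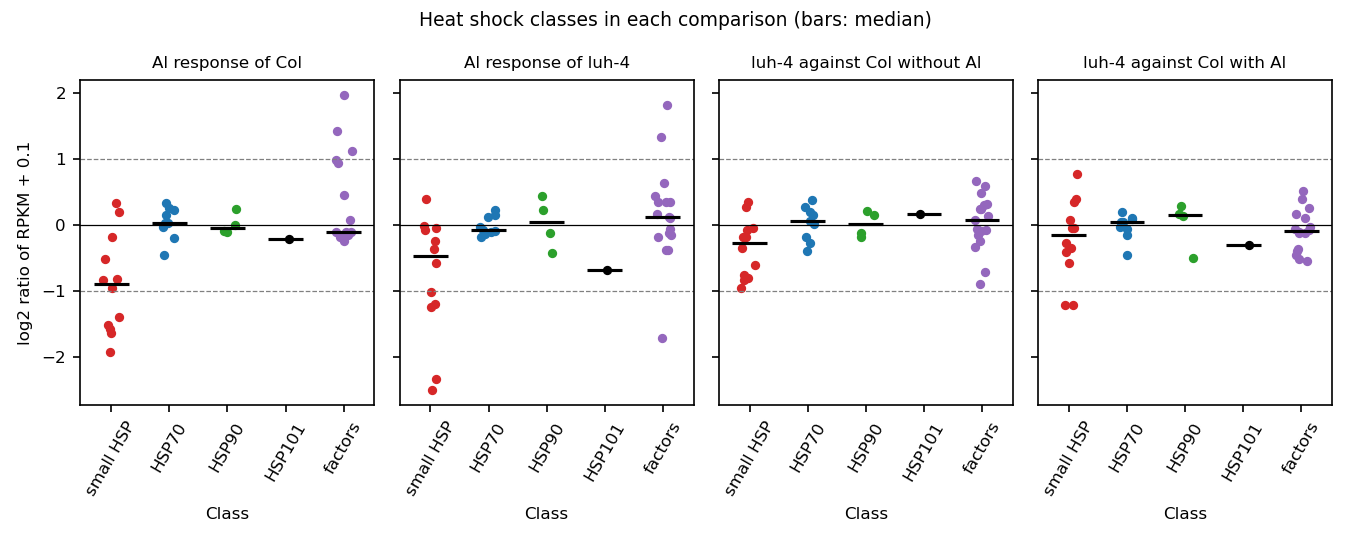
Log2 ratio of RPKM + 0.1 (y axis) of each measured member of the 5 classes in the 4 comparisons; each point is 1 locus, black bars are class medians and dashed lines mark -1 and 1. With Al, small HSP medians are -0.90 and -0.46 and HSP70 and HSP90 genes stay near 0; between genotypes, class medians lie between -0.31 and 0.16.

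Factor genes that passed the rule on more than a few reads rose. HSFA1E (AT3G02990), a class A1 factor, was at 4.15 in Col control, 16.6 in Col Al, 4.92 in luh-4 control and 12.5 in luh-4 Al. Both Al libraries lay above both controls. Its ratio was 1.97 (1.64 to 2.37) in Col against 1.33 (1.0 to 1.71) in luh-4, where reads went from 80 to 323 and from 95 to 237. By the size rule it was the only member that rose in both genotypes. The other class A1 members did not pass. HSFA1A (AT4G17750) had ratios of -0.11 in Col and 0.35 in luh-4, and HSFA1D (AT1G32330) had -0.24 and -0.38.

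HSFA6B (AT3G22830), a class A factor, was at 3.53 and 9.60 in Col and at 4.17 and 6.52 in luh-4. It rose in Col by 1.42 (1.01 to 1.90), and its ratio in luh-4 was 0.63 (0.19 to 1.1). HSFA3 (AT5G03720), a target of DREB2A in the heat response, was at 1.83 and 3.74 in Col and at 0.94 and 3.54 in luh-4. Its ratio was 0.99 (0.39 to 1.70) in Col, just short of the limit, and 1.81 (1.1 to 2.81) in luh-4, where it rose. The 2 Al libraries were alike and luh-4 control was the lowest, on 16 reads. HSFA8 (AT1G67970), another class A factor, was at 4.8 and 9.33 in Col, 0.94 (0.54 to 1.38), and at 6.02 and 6.81 in luh-4, 0.17 (-0.24 to 0.60).

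The remaining calls rest on few reads. HSFB3 (AT2G41690) went from 9 to 21 reads in Col, 1.12 (0.02 to 2.52), and from 15 to 14 in luh-4. Its call was lost under TMM scaling, with a ratio of 1.1, and when 1 RPKM was added in place of 0.1, with 0.70. HSFA2 (AT2G26150), which is strongly heat-induced and sustains the heat response, went from 14 to 3 reads in luh-4, -1.71 (-4.63 to -0.35), and from 9 to 5 in Col, and was at -0.70 in luh-4 with a pseudocount of 1 RPKM. The most abundant factor gene, HSFB1 (AT4G36990), was at 239.1, 215.0, 224.7 and 197.7 and had ratios of -0.15 and -0.18. As a class, 3 of 16 measured factor genes rose and 0 fell in Col (median -0.11), and 2 of 17 rose and 1 fell in luh-4 (median 0.12). These counts include HSFB3 in Col and HSFA2 in luh-4. Over all measured loci 2.60% rose and 2.91% fell in Col, and 2.02% rose and 3.10% fell in luh-4.

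**Figure D4:**
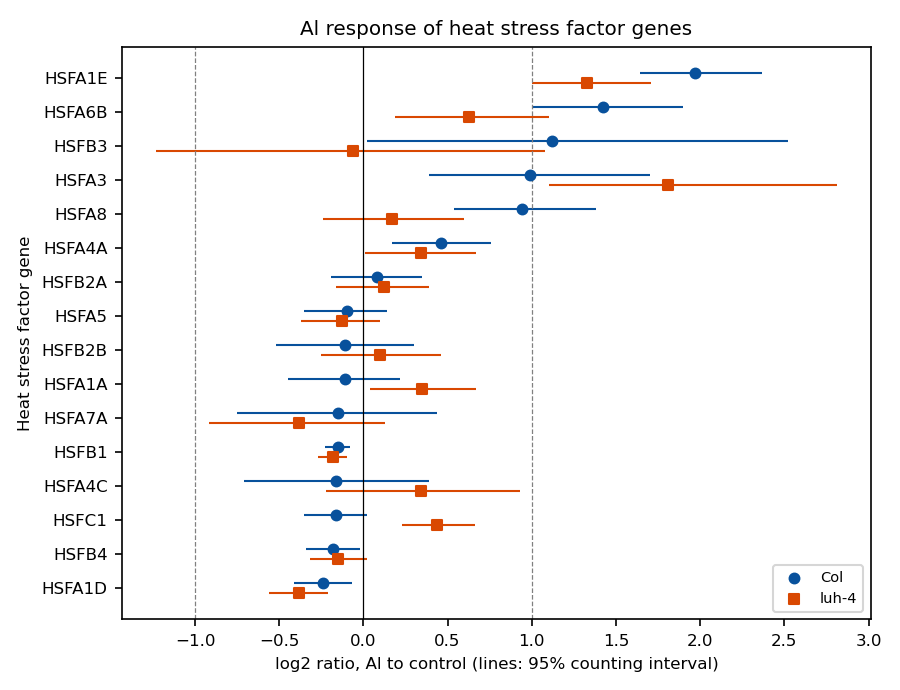
Log2 ratio of Al to control (x axis) of 16 factor genes measured in both genotypes, with 95% counting intervals as lines; blue circles are Col, orange squares luh-4, and dashed lines mark -1 and 1. HSFA1E lies at 1.97 and 1.33, and most factor genes lie near 0 in both genotypes.

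DnaJ proteins are partners of HSP70. Of 26 DnaJ-described members measured, 0 rose and 1 fell in Col (median 0.07), and 0 of 26 passed in luh-4 (median -0.04). The most abundant, ERDJ3B (AT3G62600) of the ER, was at 151.5, 142.8, 166.7 and 145.6. The member that fell in Col was AT1G59725, chosen after its values were seen, at 2.35 and 0.727 in Col, -1.57 on 10 reads in the Al library, and at 4.24 and 2.39 in luh-4. With a pseudocount of 1 RPKM its ratio was -0.95. Among the 22 other members, 10 were described as alpha-crystallin, HSP20 or heat shock family proteins and 5 were SMAX1 or SMXL proteins, which are related to HSP101. None of the 16 measured in Col or the 15 measured in luh-4 passed with Al. HSBP, a heat shock factor binding protein and inhibitor of HSFs, was at 414.5, 397.3, 475.9 and 421.0.

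Genes of protein folding were also taken from lists. The members ERDJ3B, on the ER folding list, and HSBP, on the list of genes linked to heat, are included in the counts below. Of 13 co-chaperone genes, 1 fell in both genotypes and 0 rose. This was FKBP65 (AT5G48570), a peptidyl-prolyl isomerase that is induced by heat, at 69.8 and 27.8 in Col and at 62.5 and 30.3 in luh-4, with ratios of -1.32 and -1.04. Of 6 measured genes linked to heat, 0 passed, and GOLS1, a galactinol synthase gene, had -0.72 in Col and -0.77 in luh-4. Of 7 ER folding genes, 1 rose in Col and 2 in luh-4. BZIP60 (AT1G42990), a factor of the unfolded protein response, was at 65.7 and 148.9 in Col and at 63.0 and 127.3 in luh-4, with ratios of 1.18 and 1.01. CNX2, a calnexin gene named after its values were seen, rose in luh-4 (1.15) from 30 to 68 reads.

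The second question was how luh-4 differs from Col. Without Al, 0 of 84 members were higher and 1 was lower in luh-4, against 1.55% and 0.855% of all measured loci. The lower member was SMXL8 (AT2G40130), chosen after its values were seen, at 1.26 in Col control and 0.373 in luh-4 control, -1.53 (-2.61 to -0.72), on 43 and 14 reads. It was covered over at most 44.3% of its length and had -0.72 with a pseudocount of 1 RPKM. Small HSP genes had a median of -0.27, with 10 of 12 below 0 and 0 past the rule. Over all measured loci the median was 0.02, and 7909 of 17070 were below 0. Their lowest ratios with over 100 reads in each library were HSP17.6-CII at -0.84 (-0.98 to -0.70), HSP17.6A at -0.80 (-1.05 to -0.57) and HSP17.4-CI at -0.76 (-0.86 to -0.66). These were the libraries between which the shoot markers differed, at a median of 2.0.

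With Al, 1 of 85 members was higher and 2 were lower in luh-4, against 1.22% and 0.946% of all measured loci. The lower ones were HSP17.6A at -1.22 (-1.77 to -0.71) and HSP17.8-CI at -1.21 (-1.98 to -0.52). HSP17.8-CI had -0.35 (-0.68 to -0.03) without Al. The higher member was AT1G59725 at 1.59 (0.66 to 2.91). The shoot markers had a median of 0.09 between these libraries. HSP15.4 had 0.77 (0.38 to 1.17), the highest of the small HSP genes.

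An additive fit of genotype and treatment to the reads of all 4 libraries tested a single genotype effect shared by both treatments. It did not test the genotype difference within each treatment. With edgeR's quasi-likelihood test and Benjamini-Hochberg adjustment over 17435 loci, 4 members were lower and 0 higher in luh-4, against 0.769% and 0.436% of all loci tested. They were HSP17.6A (log2 change -0.95, adjusted p = 0.0117), HSP17.4-CI (-0.52, adjusted p = 0.0306), HSP17.6C-CI (-0.51, adjusted p = 0.00983) and HSP70-4 (-0.43, adjusted p = 0.00983). Each had a log2 ratio of luh-4 to Col below 0 in both treatments. That of HSP17.4-CI was -0.76 without Al and -0.27 with Al. Of 86 members tested, the same fit gave 6 higher and 6 lower with Al, against 5.69% and 6.75% of all loci. Both shares were near those of all loci. The 5 small HSP genes that fell in both genotypes were among the lower members. HSP101 was the other lower member (-0.45, adjusted p = 0.0419). The higher ones were HSFA1E (1.67, adjusted p = 1.6e-05), HSFA3 (1.41, adjusted p = 0.0117), HSFA6B (1.05, adjusted p = 0.00672), HSP17.6C-CI (0.29, adjusted p = 0.0332), HSP90.3 (0.23, adjusted p = 0.0458) and the DnaJ-described AT1G74250, named after its values were seen (0.30, adjusted p = 0.0381). With 1 residual degree of freedom, the fit takes its error from how far the 4 libraries depart from additivity, which is not the variation between plants.

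The last question was whether the Al response differed between the genotypes. Of 86 members measured, 0 differed past the rule in either direction, against 1.35% of loci with the higher and 2.26% with the lower response in luh-4. Some differences below the limit had counting intervals that excluded 0. The luh-4 minus Col difference was 0.80 (0.59 to 1.02) for HSP17.6-CII and 0.49 (0.35 to 0.63) for HSP17.4-CI, whose ratios were near 0 in luh-4. Of the genes that fell in both, HSP17.8-CI had a difference of -0.86 (-1.61 to -0.11) and HSP15.4 had 0.50 (0.05 to 0.95). That of HSP101 was -0.47 (-0.81 to -0.14). Among factor genes the difference was -0.79 (-1.41 to -0.19) for HSFA6B, -0.77 (-1.35 to -0.21) for HSFA8 and -0.64 (-1.14 to -0.16) for HSFA1E. These genes had the larger rise or ratio in Col. The difference went the other way for HSFC1, 0.60 (0.33 to 0.88), and HSFA1A, 0.46 (0.02 to 0.91), with the larger ratio in luh-4. For HSFA3 the interval of the difference, 0.81 (-0.14 to 1.86), included 0, as it did for HSP17.6A, -0.41 (-0.97 to 0.14), HSP22 and HSP23.6.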

How the data were processed

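Polyadenylated RNA was sequenced by Illumina HiSeq 2000 or another instrument, per the labels' protocols. The authors deposited, for each library, read counts per transcript, the percent of the coding length covered and RPKM values. The submitters' processing notes name TAIR10. The aligner, the counting program and any use of strand were not given in the sources used here, so antisense overlaps cannot be separated. Values of a locus are sums of the reads or RPKM of its transcripts, and unlisted transcripts were taken as 0 reads. Intervals were exact conditional binomial (Clopper-Pearson), or normal approximations on log reads with 0.5 added for differences between responses. The size rule was tested on simulated data that held counting error only, with changes placed in loci of a mean RPKM of at least 5. That test therefore did not cover variation between libraries or changes in loci with few reads. Alternatives changed the pseudocount (1 or 0.01), the RPKM minimum (5, or none), the coverage (at least 50%), the scaling (TMM, or centring) or the interval (none), or used the additive fit (edgeR 4.0.16, R 4.3.3). After seeing the data, luh-4 Al was also set against Col control. Symbols and gene order came from RefSeq TAIR10.1, in which all 97 members matched and 94 had the same coding length. HSC70-3, HSP70T-2, HSFA1B, HSFA6A, HSFA9, CRT3, SGT1A and APX2 were on the lists and not measured here. Class members could be named, and other genes where they passed the rule with an RPKM of at least 5 or were among the 3 most abundant of their group. SMXL8, AT1G59725, AT1G74250, CNX2, EXPA7 and COBL9 were named after their values were seen. The members and lists were chosen with earlier results of these data known. Python 3.11.15, pandas 2.3.3 and scipy 1.17.1 were used. PCR reads are not independent molecules.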

Additional observations from a re-analysis of the deposited data

How the results depend on the processing

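No paired analysis was possible because each group was 1 library and the labels give no replicate numbers. No value changed sign past the rule. Counts of members that moved by over 1.5 times were as follows. For Al in luh-4, members that rose numbered 1 with an RPKM minimum of 5 or with Col control as the baseline, and those that fell numbered 3 with a pseudocount of 1 RPKM. For luh-4 against Col without Al, 1 was higher without an RPKM minimum, and 0 were lower with a pseudocount of 1, an RPKM minimum of 5 or at least 50% coverage. For luh-4 against Col with Al, 0 were higher with an RPKM minimum of 5 or a pseudocount of 1. For the difference between responses, 1 was lower without an RPKM minimum or without the interval. The additive fit has a single Al effect and a single genotype effect, and it calls by adjusted p with no size limit, so its counts are of another kind and belong to neither genotype or treatment alone. It gave 6 members higher with Al, and 4 lower and 0 higher in luh-4.

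With Col control as baseline the small HSP median in luh-4 with Al was -0.82, against -0.46. Other class medians moved for HSP70 in luh-4 with Al (0.12 with Col control as baseline) and without Al against Col (-0.08 with 50% coverage), and for HSP90 in luh-4 with Al (-0.13 with 50% coverage, 0.18 with Col control as baseline) and without Al against Col (0.15 with 50% coverage). With Col control as baseline for the luh-4 Al library, an alternative chosen after seeing the data, HSP17.6A (-3.14), HSP17.8-CI (-2.86), HSP22 (-1.32) and HSP23.6 (-1.23) were lower and HSFA1E (1.57) higher, and HSP15.4 (-0.75) and HSFA3 (0.92) no longer passed. HSP23.6 in luh-4 had -0.90 with a pseudocount of 1 RPKM. The causes were not tested. Single genes kept their direction and side of the limit in 412 recalculated values, 12 no longer passed, HSFA3 in Col passed (1.03 with a pseudocount of 0.01), and AT1G59725 had 0.03 with that baseline. Depth limits HSP21, HSFA2, HSFB3, HSP15.7 and HSP23.6, which had few reads.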
